A study of Lotus japonicus with 12 samples.

Results

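Young root nodules of the legume Lotus japonicus were compared between wild-type (WT) plants and cpop1 mutants at 10 days post inoculation (dpi), with 3 RNA sequencing libraries per genotype. These 6 libraries were chosen by their labels from a series of 12, of which the other 6 are nodules of the same genotypes at 21 dpi. Seedlings of every group grew in vermiculite and received the rhizobium Mesorhizobium loti MAFF 303099, so inoculation is common to WT and mutant. The genotype of the mutant reads cpop1/hemf2 in the labels, and the kind of allele is not stated there. Nothing in the labels ties the replicates to separate plants or cultures. The p-values therefore cover the spread between these libraries, which could be technical. In whole nodules, fewer cells of a type and less RNA per cell cannot be told apart.

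Nodules are organs in which rhizobia reduce nitrogen gas with nitrogenase, an enzyme that oxygen destroys. Infected plant cells make large amounts of leghemoglobin, a heme protein that carries oxygen to respiration while holding free oxygen low. The series title names CPOP1 as an enzyme of heme synthesis, and hemF is the name used for coproporphyrinogen oxidase, which makes protoporphyrinogen late in that pathway. The comparison addresses which transcripts differ when this enzyme is affected in nodules that are still young.

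Values are FPKM, fragments per transcript length and sequencing total. A feature (a row of the table, called a gene here) was tested if it reached 1 FPKM in at least 3 of the 6 libraries, which held for 20874 of 29531. Of these, 1073 passed in exactly 3 libraries, while 1094 features fell short with 2. The filter was passed only through the cpop1 libraries by 241 genes and only through the WT libraries by 226, and those genes had to differ. None of the IDs matched the gene table of assembly LjGifu_v1.2, so genes are given by ID without function, and neither the mutated gene nor nodule marker genes were analysed here. Depth in reads is unknown. Where low values recur as multiples of 1 read, the most frequent ratio to WT replicate 1 was 1 in 4 of the other 5 libraries and 1.05 in cpop1 replicate 1.

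WT replicate 3 stood apart from its group. Across the tested genes, log2(FPKM + 1) correlated at 0.99 between WT replicates 1 and 2, but at 0.833 and 0.837 between replicate 3 and these libraries. With cpop1 replicates 1, 2 and 3, WT replicate 3 correlated at 0.915, 0.930 and 0.936. The cpop1 libraries correlated with each other at 0.964 to 0.985, and with WT replicates 1 and 2 at 0.824 to 0.846. Genes are not independent replicates, so these values describe the libraries only. WT replicate 3 was at least 2-fold above every other 10 dpi library in 370 genes and at least 2-fold below in 166. In the other libraries such genes numbered 3 to 51 above and 9 to 42 below. Its label was kept, and results are given with and without it.

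Differences between the genotypes were fitted with limma on log2(FPKM + 1), with all 12 libraries sharing 1 estimate of each gene's spread. Changed means a limma p under 0.05 after Benjamini-Hochberg adjustment over all genes tested. In young cpop1 nodules 2519 genes rose (12.1%) and 2393 fell (11.5%), together 23.5% of those tested. Of these, 1456 of the higher and 829 of the lower genes changed at least 2-fold, on the scale of FPKM + 1. The median change was 1.12 on the log2 scale among genes that rose and -0.80 among genes that fell. In TPM, with each library's total rescaled to 1 value, the balance turned, with 11.6% of genes tested higher and 13.4% lower. Without WT replicate 3, 7892 genes rose (37.8%) and 5714 fell (27.4%), together 65.2% of those tested. That balance also depended on the scale: it turned to 31.5% higher and 35.0% lower with the libraries set to 1 shared median, and to 32.4% and 34.1% after quantile normalization, while in TPM it was 35.3% and 30.4%. All 4912 genes called with that library were also called without it and in the same direction, so requiring a call both ways took no gene away. The count depended on single libraries: it was 2288 and 2108 without WT replicates 1 and 2, 13606 without WT replicate 3, and 2419 and 2986 without cpop1 replicates 2 and 3.

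The fit to the 6 libraries of 10 dpi alone called 377 genes higher (1.81%) and 315 lower (1.51%), together 3.32% of those tested. At an unadjusted p under 0.05 this fit held 4905 genes. Without WT replicate 3 it called 12028 genes, 57.6%, of which 7062 were higher (33.8%) and 4966 lower (23.8%). Changed in the same direction in all 4 of these fits were 691 genes, 3.31%, with 377 higher (1.81%) and 314 lower (1.5%). These genes changed strongly: 361 of the higher and 295 of the lower genes passed 2-fold, and 19 and 39 of them passed 16-fold. All 691 had no overlap between the genotypes' 3 libraries, against 28.9% of all genes tested, with 13.2% above and 15.7% below WT. Large gaps are what these fits select. Without WT replicate 3 the groups did not overlap in 75% of all genes tested, with cpop1 above in 42.2% and below in 32.7%. The 691 genes numbered 227 and 194 without WT replicates 1 and 2, and 194, 154 and 223 without cpop1 replicates 1, 2 and 3.

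**Figure D1:**
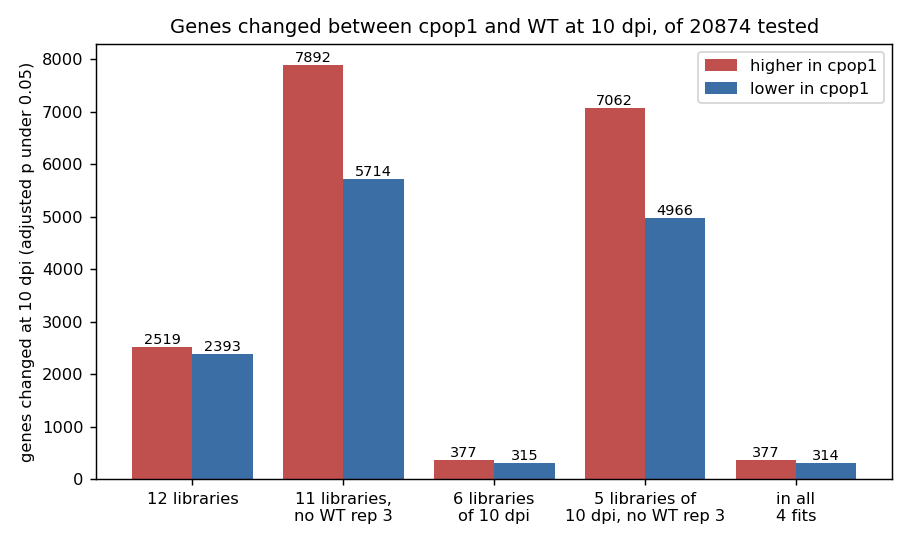
Number of genes changed between cpop1 and WT at 10 dpi (y axis; limma adjusted p under 0.05) in 4 fits that differ in the libraries used, and the genes changed in all of them (x axis). Bars are counts of genes higher (red) and lower (blue) in cpop1. Counts run from 377 higher and 315 lower in the fit to the 6 libraries of 10 dpi to 7892 and 5714 without WT replicate 3, in FPKM as deposited; with all libraries the excess of higher genes turns in TPM, and without WT replicate 3 it turns after a median shift or quantile normalization.

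Among genes changed in all 4 fits, those with the widest gap between the nearest libraries of the genotypes were named. Their selection requires that the genotypes part in every library, WT replicate 3 included. These genes were picked by that gap, so their p-values add no support. BGI_novel_G003607 was at 278, 175 and 142 FPKM in the 3 cpop1 libraries and at 0.69, 0.5 and 1.21 FPKM in WT. Its log2 change was 6.75 ± 0.27 (SE; adjusted p in limma 9.58e-08). BGI_novel_G001120 was at 161, 106 and 86.5 FPKM in cpop1 and at 0.29, 0.4 and 0.47 FPKM in WT, a rise of 6.37 ± 0.23 on the log2 scale (adjusted p in limma 6.74e-08). It passed the filter only through the cpop1 libraries, so it had to differ and its p-value adds no support. For both IDs the lowest cpop1 library lay far above the highest WT library. At 21 dpi their cpop1 libraries were again high, at 149, 119 and 123 FPKM for BGI_novel_G003607 and 86.2, 73.0 and 74.1 FPKM for BGI_novel_G001120. Mature WT libraries did not exceed 1.29 and 0.75 FPKM for these IDs.

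The reverse pattern was held by LotjaGi3g1v0078750, numbered on chromosome 3, which stood at 0.32, 0.64 and 0.94 FPKM in cpop1 and at 302, 340.3 and 377 FPKM in WT. Its log2 change was -7.72 ± 0.18 (adjusted p in limma 6.54e-09). This ID passed the filter only through the WT libraries, so it had to differ and its p-value adds no support. WT replicate 3 was its highest library. LotjaGi1g1v0172100, numbered on chromosome 1, was at 1.16, 0.72 and 0.72 FPKM in cpop1 and at 156, 182 and 164 FPKM in WT, with a log2 change of -6.50 ± 0.16 (adjusted p in limma 6.54e-09). Both were lower in mature WT nodules than in young ones, with means of 15.7 ± 3.07 and 7.09 ± 1.46 FPKM at 21 dpi (SD, n = 3). In mature cpop1 nodules neither exceeded 0.11 FPKM in any library. With cpop1 that low, the log2(FPKM + 1) difference at 21 dpi is capped by the WT level and the pseudocount, so the sizes of the fall at both ages cannot be compared.

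Above 1000 FPKM on average, 13 of 78 genes rose (16.7%) and 9 fell (11.5%), against 12.1% and 11.5% of all genes tested. Without WT replicate 3 the balance turned, with 25 higher (32.1%) and 27 lower (34.6%), against 37.8% and 27.4% of all genes tested. In the most abundant gene of each direction WT replicate 3 lay between the groups. The most abundant gene that rose with no overlap was LotjaGi5g1v0269800_LC, at 6768, 8148 and 7805 FPKM in cpop1 and at 1782, 1628 and 5191 FPKM in WT. Its rise was 1.61 ± 0.38 on the log2 scale (limma adjusted p = 0.0145), and 2.15 ± 0.17 without WT replicate 3. The most abundant that fell, LotjaGi1g1v0576500, was at 3762, 3975 and 4659 FPKM in cpop1 and at 10315, 9505 and 5495 FPKM in WT. Its change was -0.98 ± 0.26 (limma adjusted p = 0.0238), and -1.27 ± 0.17 without WT replicate 3. In the fit to the 6 libraries alone neither passed (limma adjusted p = 0.145 and 0.195). At 21 dpi LotjaGi5g1v0269800_LC was again higher in cpop1 (limma adjusted p = 0.0339), while LotjaGi1g1v0576500 did not pass, with means of 9684 ± 405 FPKM in cpop1 and 10951 ± 660 in WT.

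In most genes changed without WT replicate 3, that library lay nearer cpop1 than WT replicates 1 and 2. Of the 13606 genes changed without this library, its level was nearer the cpop1 mean than the mean of WT replicates 1 and 2 in 10798 (79.4%). It lay nearer WT in 2808 (20.6%), and beyond the cpop1 mean in 6251. Inside the range of the 3 cpop1 libraries it lay in 4255. These genes were selected by the difference between cpop1 and WT replicates 1 and 2. The median position was 0.95, on a scale where 0 is the mean of WT replicates 1 and 2 and 1 is the cpop1 mean of log2(FPKM + 1). Genes that rose had WT replicate 3 nearer cpop1 in 84.3%, and genes that fell in 72.5%. For the 691 genes changed in all 4 fits the median position was 0.08, which the selection favours.

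**Figure D2:**
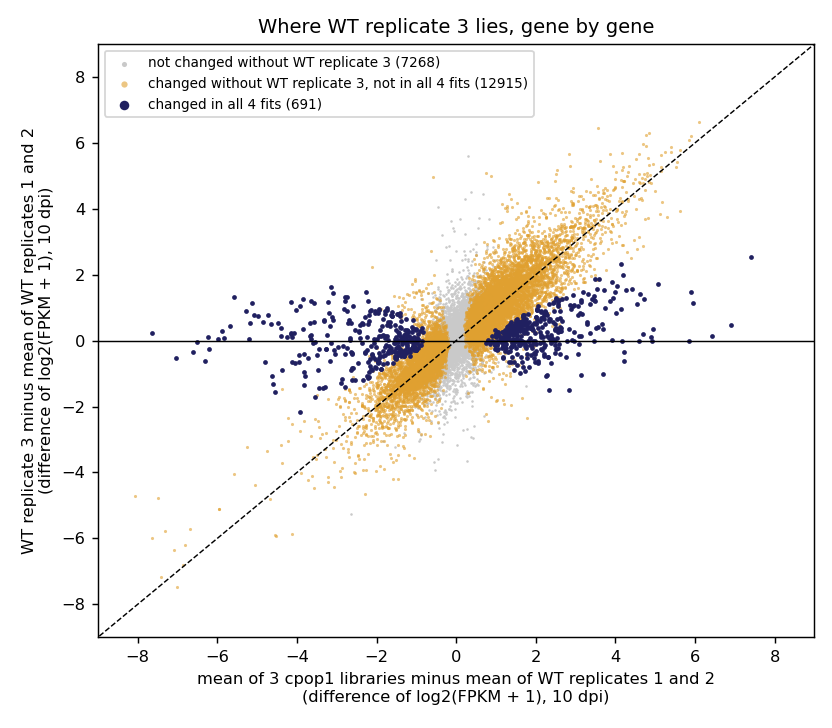
Each point is 1 of 20874 genes: on the x axis the mean of the 3 cpop1 libraries and on the y axis WT replicate 3, both as differences in log2(FPKM + 1) from the mean of WT replicates 1 and 2, which the axes share. On the dashed line WT replicate 3 equals cpop1, and on the horizontal line it equals WT replicates 1 and 2. Most of the 13606 genes changed without it lie nearer the former in height. The 691 genes changed in all 4 fits (dark) scatter around the latter, which their selection favours.

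Genes that this library decided were those changed without WT replicate 3 but not with it, 8694 of the 20874 genes tested. With its value inside or beyond the cpop1 range, with no overlap of WT replicates 1 and 2, and with at least 5 FPKM in the higher group, 3797 were higher and 2370 lower in cpop1. Lack of overlap without WT replicate 3 was common, in 75% of all genes tested, with cpop1 above in 42.2% and below in 32.7%. LotjaGi4g1v0074000 was at 159, 93.8 and 88.2 FPKM in cpop1, at 1.35 and 0.12 FPKM in WT replicates 1 and 2, and at 159.7 FPKM in WT replicate 3. Its change was 3.88 ± 1.40 on the log2 scale with all libraries (limma adjusted p = 0.0654) and 6.09 ± 0.36 without WT replicate 3 (limma adjusted p = 2.93e-07). BGI_novel_G001573 was at 118, 124 and 163 FPKM in cpop1, at 1.05 and 1.47 FPKM in WT replicates 1 and 2, and at 166 FPKM in replicate 3. For both IDs WT replicate 3 was the highest of the 6 libraries.

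In the other direction, BGI_novel_G000031 was at 1.54, 2.2 and 0.99 FPKM in cpop1 and at 337 and 313 FPKM in WT replicates 1 and 2, against 0.84 FPKM in WT replicate 3. BGI_novel_G001259 was at 4.55, 3.94 and 0.63 FPKM in cpop1 and at 430 and 400 FPKM in WT replicates 1 and 2, against 2.74 FPKM in replicate 3. Their changes were -4.52 ± 1.78 and -4.61 ± 1.68 on the log2 scale with all libraries, and did not pass (limma adjusted p = 0.0849 and 0.0677). Without WT replicate 3 they were -7.01 ± 1.01 and -6.87 ± 1.03 (limma adjusted p = 0.00013 and 0.000173). The 21 dpi libraries do not include WT 10 dpi replicate 3, and there all 4 IDs differed in the direction set by WT replicates 1 and 2. LotjaGi4g1v0074000 was at 184 to 360.2 FPKM in mature cpop1 and at most 1.45 FPKM in mature WT nodules. BGI_novel_G001259 was at 1018 to 1251 FPKM in mature WT nodules and at 0.58, 0.52 and 27.5 FPKM in mature cpop1, where replicate 3 stood above the others.

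**Figure D3:**
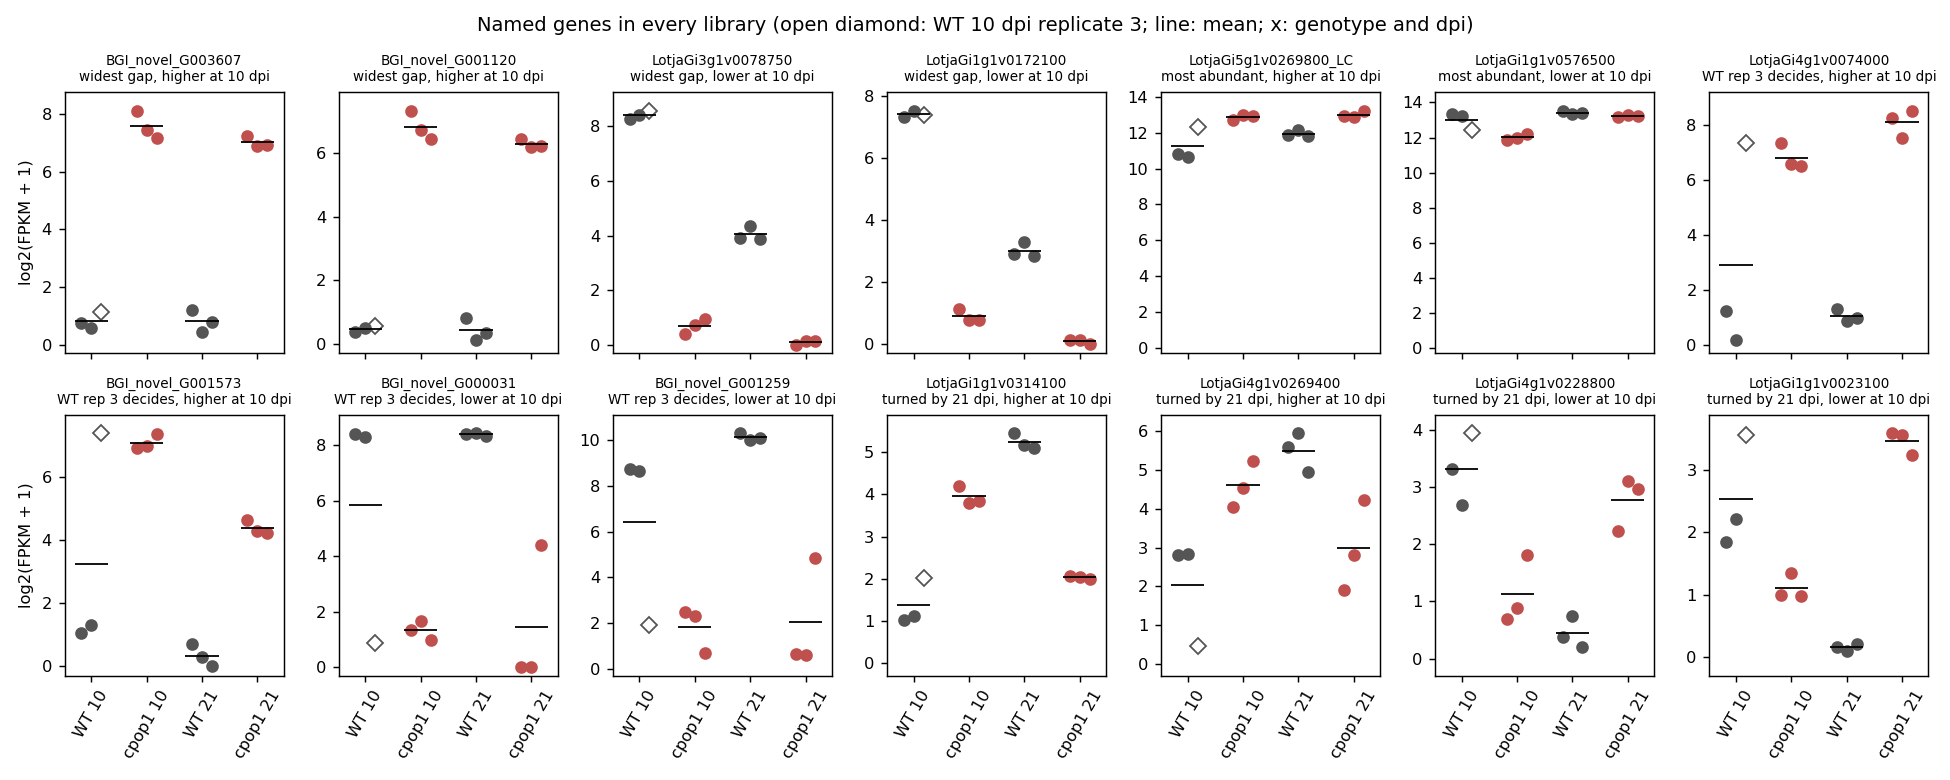
Level of the 14 named genes in each of the 12 libraries (y axis, log2(FPKM + 1); x axis, genotype and dpi). Grey points are WT, red points cpop1, lines are means of 3 libraries, and the open diamond is WT 10 dpi replicate 3. By the rules that named them, it sits with WT in the 4 genes of widest gap. By those rules it also lies within or beyond the cpop1 range in the 4 genes that it decides. In the 2 abundant genes it lies between the groups.

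Some genes were near 0 in 1 genotype and present in the other. At 10 dpi 22 of the 20874 genes tested were near 0 in WT and present in cpop1. They were at 1 FPKM or more in every cpop1 library and at 0.1 FPKM or less in every WT library, WT replicate 3 included. Of these, 16 were listed at 0 in all 3 WT libraries. Mean levels of the 22 genes in cpop1 ran from 1.19 to 58.5 FPKM. All 22 are among the 241 genes that passed the filter only through the cpop1 libraries, so they had to differ. Of the 22, 14 had BGI_novel IDs, 6 had LotjaGi IDs with the suffix _LC, which the sources used here do not explain, and 2 had LotjaGi IDs without suffix. At 21 dpi all 22 stayed below 1 FPKM in every WT library, and 15 were at 1 FPKM or more in every cpop1 library. The highest, BGI_novel_G001119, was at 77.0, 54.4 and 44.3 FPKM in young cpop1 nodules and listed at 0 in young WT nodules. It is numbered next to BGI_novel_G001120 and was picked out after its values were seen.

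In the reverse direction 11 of the 20874 genes tested were at 1 FPKM or more in every WT library and at 0.1 FPKM or less in every cpop1 library. Mean levels of these genes in WT were 1.31 to 10.9 FPKM. All 11 are among the 226 genes that passed the filter only through the WT libraries, so they had to differ. At 21 dpi only 1 of the 11 was at 1 FPKM or more in every WT library. The counts were larger with WT replicate 3 left aside. Over the whole table of 29531 features, 131 were present in every cpop1 library and absent from WT replicates 1 and 2 by the same limits. WT replicate 3 was at 1 FPKM or more in 79 of them, at 0.1 FPKM or less in 22, and in between in 30. Another 82 were absent from cpop1 and present in WT replicates 1 and 2, and of these WT replicate 3 lacked 44, had 11 and was in between in 27.

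The balance of higher and lower genes differed between classes of ID, with no test made of that difference. Over all levels, in FPKM as deposited, LotjaGi IDs of the chromosomes without suffix rose more often than they fell: 2136 of 16360 (13.1%) were higher and 1796 (11%) lower in cpop1, against 12.1% and 11.5% of all genes tested. Of 2145 LotjaGi IDs with the suffix _LC, 186 (8.67%) rose and 298 (13.9%) fell. Of 2319 BGI_novel IDs, 195 (8.41%) rose and 298 (12.9%) fell. The median change was 0.11 on the log2 scale for IDs without suffix, -0.18 for _LC and -0.21 for BGI_novel, against 0.04 over all genes tested. Of 41 organelle IDs (C and M), 1 was higher and 0 were lower. Among genes changed in all 4 fits, 377 were higher (54.6%) and 314 lower over all classes. BGI_novel IDs were more often higher there, while _LC IDs stood near the share over all classes. There 66 BGI_novel IDs were higher and 28 lower, and 36 _LC IDs were higher and 30 lower. IDs without suffix stood at 275 higher and 255 lower. These genes made up 4.05% of BGI_novel IDs, 3.08% of _LC IDs and 3.24% of IDs without suffix, against 3.31% of all genes tested.

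Without WT replicate 3 the contrast between classes widened. Then 42.7% of IDs without suffix rose and 24.2% fell, while 21.1% of _LC IDs rose and 39.7% fell, and 19.1% of BGI_novel IDs rose and 38.4% fell, against 37.8% and 27.4% of all genes tested. The libraries' scale bears on these shares. Setting the libraries to 1 shared median moved the median change of all genes without WT replicate 3 from 0.11 to -0.06 on the log2 scale. On that scale the class medians without WT replicate 3 were 0.05, -0.46 and -0.49 in the same order, so the order of the classes was kept. With totals rescaled to 1 value per library (TPM) and all libraries, IDs without suffix were lower slightly more often than higher, at 12.9% against 12.5%. WT replicate 3 itself lay above the mean of WT replicates 1 and 2 by a median of 0.35 on the log2 scale in IDs without suffix. It lay below that mean in _LC and BGI_novel IDs, with medians of -0.29 and -0.31.

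The classes also differ in level, so the shares were read within classes of level. Under 5 FPKM on average, with all libraries, 575 of 3672 IDs without suffix were higher (15.7%) and 265 lower (7.22%). Most of the excess of higher over lower IDs without suffix lay in this lowest level class. There 84 of 978 _LC IDs were higher and 92 lower, and 120 of 1506 BGI_novel IDs were higher and 165 lower. Among genes with a mean of 5 to 20 FPKM, 11.6% of IDs without suffix rose and 10.2% fell, against 8.29% and 18.7% of _LC IDs and 7.59% and 13.7% of BGI_novel IDs. From 20 to 100 FPKM IDs without suffix fell more often than they rose with all libraries, with 660 of 5447 higher (12.1%) and 763 lower (14.0%). Without WT replicate 3 this turned, with 2109 higher (38.7%) and 1709 lower (31.4%). In that level class, with all libraries, 20 of 324 _LC IDs were higher and 56 lower, and 26 of 201 BGI_novel IDs were higher and 43 lower. From 100 to 1000 FPKM the _LC class went the other way, with 15 of 74 higher and 8 lower, whereas BGI_novel had 7 of 56 higher and 13 lower. The share of total FPKM held by BGI_novel IDs was 5.09%, 4.77% and 3.30% in WT replicates 1, 2 and 3, and 3.39%, 3.26% and 3.21% in cpop1. WT replicate 3 lay inside the cpop1 range, so the groups overlapped, and the difference did not pass (exact two-sided permutation p = 0.2; 0.333 adjusted over 5 classes). IDs with _LC held 5.07%, 5.04% and 6.03% in WT and 6.04%, 6.53% and 6.46% in cpop1, with no overlap by a narrow margin. The exact two-sided permutation p was 0.1, the smallest that 3 against 3 libraries allow, and 0.333 after adjustment over 5 classes. At 21 dpi the mean share of _LC IDs was instead lower in cpop1, at 4.87% against 5.22% in WT.

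**Figure D4:**
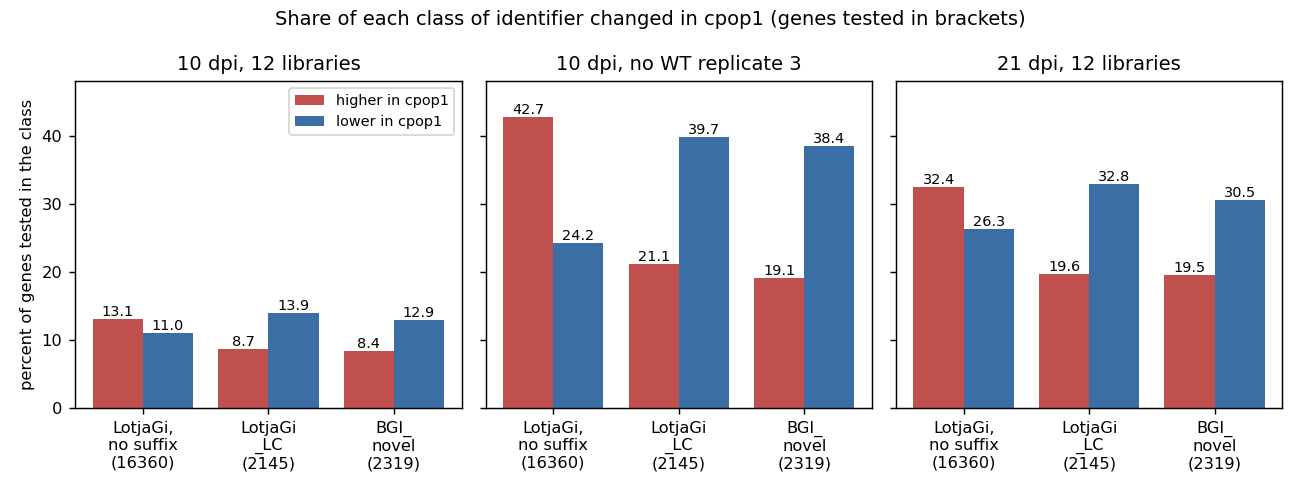
Percent of the genes tested in each class of identifier (x axis) that were higher (red) or lower (blue) in cpop1, at 10 dpi with all libraries, at 10 dpi without WT replicate 3, and at 21 dpi. In FPKM as deposited, IDs without suffix were more often higher and _LC and BGI_novel IDs more often lower in each of the 3 panels, though for IDs without suffix at 10 dpi with all libraries this flips to 12.5% higher and 12.9% lower in TPM. In the first panel IDs without suffix stand at 13.1% higher and 11% lower, against 8.67% and 13.9% for _LC. Not shown are the genes changed in all 4 fits, where 66 BGI_novel IDs were higher and 28 lower.

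The number of features at 1 FPKM or more was 19603, 19808 and 20623 in WT replicates 1, 2 and 3, and 20245, 20488 and 20359 in cpop1. WT replicate 3 had the most of all 6 libraries, so the groups overlapped (exact two-sided permutation p = 0.4). Replicates 1 and 2 of WT lay below every cpop1 library. BGI_novel IDs went the other way, with 2449 and 2460 at 1 FPKM or more in WT replicates 1 and 2, 2045 in WT replicate 3, and 2042, 2096 and 2069 in cpop1.

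Changed genes were spread over the chromosomes, which the digit before the letter g names in LotjaGi IDs. Between 11.4% and 13.5% of the genes tested on each of the 6 chromosomes rose and between 10.6% and 12% fell. Genes changed in all 4 fits made up 2.80% to 3.72% of each. Tested IDs that follow each other in number formed 57 runs of 3 or more that all rose and 34 that all fell. The longest held 5 genes that rose, once on chromosome 3 (LotjaGi3g1v0401800 to LotjaGi3g1v0402400) and once on chromosome 4 (LotjaGi4g1v0460200 to LotjaGi4g1v0460700), and they were picked out after their values were seen. In the first, LotjaGi3g1v0401900 was at 34.5, 40.2 and 49.8 FPKM in cpop1 and at 4.91, 5.11 and 18.7 FPKM in WT, a rise of 2.23 ± 0.39 on the log2 scale (limma adjusted p = 0.00328). The other genes of that run rose by 0.68 to 1.77. Among them LotjaGi3g1v0401800 passed the filter only through the cpop1 libraries, so it had to differ. The same holds for LotjaGi4g1v0460500 in the run on chromosome 4. The total of 91 runs fell with any of 11 libraries left out, 21 dpi included. It was 14 without WT 10 dpi replicate 1 or 2, 38, 15 and 30 without cpop1 10 dpi replicates 1, 2 and 3, and 51 to 59 without a library of 21 dpi.

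The libraries of 21 dpi, which form no part of the difference at 10 dpi, were compared for the same genes. They enter the calls at 10 dpi through the shared estimate of the spread. Of the 2519 genes that rose at 10 dpi, 1561 (62.0%) also rose and 160 (6.35%) fell in cpop1 at 21 dpi, where 29.6% of all genes tested rose and 27.4% fell. Of the 2393 that fell, 1655 (69.2%) fell again and 120 (5.01%) rose. Without WT replicates 1 and 2 of 10 dpi the 3216 genes changed the same way numbered 1426 and 1306, and without cpop1 replicates 2 and 3 they numbered 1579 and 1876. Of the genes changed in all 4 fits, 256 of 377 rose again and 225 of 314 fell again. With a separate fit for each age, which shares no library or spread, 508 of 692 genes changed the same way at 21 dpi (73.4%). The opposite way was taken by 50 (7.23%). Of the higher genes 271 of 377 rose again (71.9%), where 39.3% of all genes tested rose. Of the lower genes 237 of 315 fell again (75.2%), where 34% of all genes tested fell. In either direction, 73.3% of all genes tested changed at 21 dpi in that fit. In the fit to 12 libraries 57% of all genes tested changed at 21 dpi.

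The outcome at 21 dpi was also counted by where WT replicate 3 lay. Of the 10798 genes changed without this library in which it lay nearer cpop1, 6359 (58.9%) changed the same way at 21 dpi and 285 (2.64%) the opposite way. Of the 2808 in which it lay nearer WT replicates 1 and 2, 1575 (56.1%) changed the same way and 289 (10.3%) the opposite way. In the separate fit to 21 dpi the same-way shares were 76.5% and 61.0%, and the opposite-way shares 5.15% and 13.0%. The difference between these sets was not tested.

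**Figure D5:**
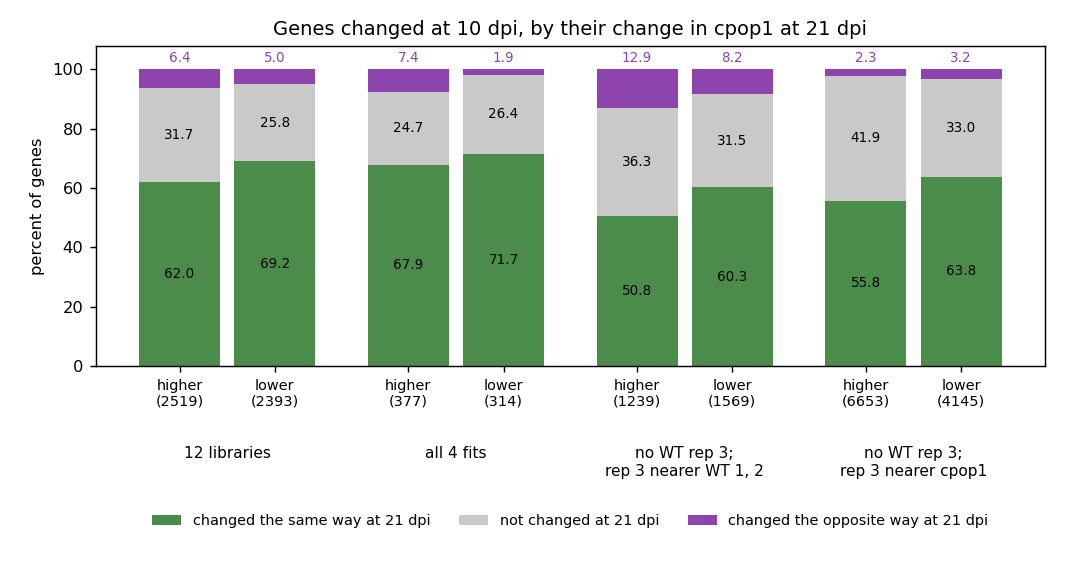
For genes higher or lower in cpop1 at 10 dpi (x axis, 4 sets, number of genes in brackets), the percent that changed the same way (green), did not pass the test (grey) or changed the opposite way (purple) in cpop1 at 21 dpi. Between 50.8% and 71.7% changed the same way, and the opposite way was most frequent, at 12.9% and 8.22%, where WT replicate 3 lay nearer WT replicates 1 and 2.

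The genotype effect itself was compared between the ages in the fit to 12 libraries, where it differed in 19.2% of all genes tested, 9.48% with a higher and 9.74% with a lower effect at 21 dpi. In 280 of the 4912 genes changed at 10 dpi, cpop1 changed the opposite way at 21 dpi. LotjaGi1g1v0314100 was at 17.3, 13.0 and 13.4 FPKM in young cpop1 nodules and at 1.04, 1.16 and 3.06 FPKM in young WT nodules, a rise of 2.56 ± 0.24 on the log2 scale (limma adjusted p = 7.2e-05). In mature nodules it was at 3.10 ± 0.101 FPKM in cpop1 and 37.0 ± 5.21 in WT (SD, n = 3), with a log2 change of -3.20 ± 0.24 (adjusted p in limma 6.3e-06). Young and mature groups alike were free of overlap, and this ID was changed in all 4 fits. LotjaGi4g1v0269400 was at 15.5, 22.4 and 36.4 FPKM in young cpop1 and at 5.95, 6.12 and 0.39 FPKM in young WT nodules. Its log2 change was 2.57 ± 0.70 (adjusted p in limma 0.0257), and 1.79 ± 0.56 without WT replicate 3, its lowest library. At 21 dpi it was lower in cpop1, at 8.78 ± 7.78 against 45.9 ± 15.6 FPKM (limma adjusted p = 0.0108). In the fit to the 6 libraries alone its young difference did not pass (limma adjusted p = 0.11).

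The reverse turn was found in LotjaGi4g1v0228800, at 0.62, 0.84 and 2.51 FPKM in young cpop1 and 9.02, 5.43 and 14.5 FPKM in young WT nodules. Its log2 change was -2.19 ± 0.38 (adjusted p in limma 0.00343), and it did not pass in the fit to the 6 libraries alone (limma adjusted p = 0.055). In mature nodules it was at 6.06 ± 2.05 FPKM in cpop1 and 0.373 ± 0.268 in WT. LotjaGi1g1v0023100 was at 1.0, 1.53 and 0.96 FPKM in young cpop1 and 2.57, 3.65 and 10.8 FPKM in young WT nodules, a change of -1.43 ± 0.36, and of -0.92 ± 0.18 without WT replicate 3. In the fit to the 6 libraries alone it did not pass (limma adjusted p = 0.146). At 21 dpi it was at 10.1 ± 1.45 FPKM in cpop1 and 0.113 ± 0.040 in WT, a change of 3.31 ± 0.36 (limma adjusted p = 5.03e-05). In these latter genes WT replicate 3 was the highest of the 6 young libraries.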

How the data were processed

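FPKM of 12 libraries were deposited by the authors in 1 table, 1 column per library, as the file header names them. RNA was taken with the RNeasy Plant Mini Kit and sequenced on DNBSEQ, per the labels' protocols. The submitters' processing notes list HISAT and Bowtie2 (2.2.5) without saying what each did. Build, annotation and the program behind the FPKM were not given in the sources used here. Columns named hemf2 were tied to cpop1 samples through the labels' descriptions. The deposited FPKM express shares of a library, with sums of 985272 to 1065687 at 10 dpi. IDs that occur on more than 1 row (2 IDs) were kept as separate rows.

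Genes with at least 1 FPKM in 3 of the 6 libraries of 10 dpi were fitted with limma 3.58.1 in R 4.3.3 (1 mean per group, pseudocount 1, eBayes with an intensity trend), with and without WT 10 dpi replicate 3, on 12 libraries and on each age alone. The filter kept all 6 libraries. Fold changes on the log2(FPKM + 1) scale understate those of low genes. The fits to 12 and 11 libraries were also run on simulated data, with independent values and the same spread of a gene in every library. No simulated library stood apart as WT replicate 3 does, so that run does not bear on the counts this library decides. Exact permutation tests and plots used Python 3.11.15, SciPy 1.17.1 and matplotlib 3.10.9.

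Members, lists and rules were chosen with earlier results of these data known. Of 6 gene lists (heme synthesis, hemoglobins, symbiotic signalling, nodule function, senescence, oxidative stress), 0 could be applied, since 0 IDs matched any of 40429 reference rows. Named by rule, in each direction, were 2 genes of widest gap among those changed in all 4 fits, 1 most abundant with no overlap, 2 with the largest change without WT replicate 3 among those it decides, and 2 whose direction turned by 21 dpi with the largest smaller change, with at least 5 FPKM in the higher group except for the abundant ones. Alternatives were other pseudocounts, filters, scalings, variance models, library weights, a replicate block and each library left out.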

Additional observations from a re-analysis of the deposited data

Results flagged for a closer look

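A test of the difference between the genotype effects at 21 and 10 dpi (limma, adjusted over all genes tested) singled out 361 of the 691 genes changed in all 4 fits, 52.2%, against 19.2% of all genes tested. The 691 genes were selected by the 10 dpi values that enter this difference. Among the named genes it passed in 6. The difference, 21 minus 10 dpi on the log2 scale, was 3.77 for LotjaGi3g1v0078750 and 3.59 for LotjaGi1g1v0172100. Both were at 0.11 FPKM or less in mature cpop1 nodules, so these values follow the lower WT level and the pseudocount at 21 dpi and do not show a smaller fall. It was -5.77 for LotjaGi1g1v0314100, -5.09 for LotjaGi4g1v0269400, 4.53 for LotjaGi4g1v0228800 and 4.74 for LotjaGi1g1v0023100, which were chosen for turning direction.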

How the results depend on the processing

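Genes changed, 4912 as reported, numbered 692 in the fit to 6 libraries, 13606 without WT replicate 3 and 17841 with library weights. Leaving out single libraries gave 2108 to 13606. Genes changed with and without WT replicate 3 numbered 692 in fits to each age and 15806 with library weights, and 2071 to 4011 with libraries left out. Those that changed the same way at 21 dpi, 3216 as reported, numbered 508 and 11040, and 1306 to 2426 with libraries left out. The 691 genes changed in all 4 fits numbered 13748 with library weights, 263 with a replicate block, and 154 to 692 with libraries left out. Genes with no overlap, 6035 as reported, numbered 6431 to 15646 with a 10 dpi library left out. The 91 runs numbered 44 with no filter, 3 in fits to each age, 1461 with library weights, and 14 to 59 with libraries left out. The cause was not tested. The estimate of library weights stopped short of its convergence tolerance. The share of changed genes that were higher, 51.3%, was 49.6% with a pseudocount of 0.1, 49.4% with a 5 FPKM filter, 53.1% after a median shift and without the 20 most abundant genes, 46.3% at a common total, 54.5% in the fit to 6 libraries, 55.6% with library weights, and 49.4% to 58.0% with libraries left out. The difference in features at 1 FPKM lay between 148.5 and 658.5 with libraries left out, and that in the share held by BGI_novel IDs between -1.65 and -0.75 percentage points. WT replicate 3 was nearer cpop1 in 77.6% to 82.0% of genes changed without it. Whether replicate numbers mark a pairing was not settled. Deviations from the group mean of same-numbered 10 dpi libraries correlated at 0.286, -0.066 and 0.231. For cpop1 replicates 1 and 3 the same-numbered WT library correlated best, while cpop1 replicate 2 correlated best with WT replicate 3 (0.102). Deviations of 3 libraries from their own mean depend on each other, so these values cannot decide it. With the replicate block 4805 genes were changed. Where 1 WT library was left, it was assumed to vary like the other groups. The 4 genes of widest gap and LotjaGi1g1v0314100 passed under each of 26 alternatives, and no named gene reversed. Among them BGI_novel_G001120 and LotjaGi3g1v0078750 had passed the filter only through the genotype in which they were high. Depth in reads is unknown, so no interval for counting error is given.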
